A study of Mus musculus with 75 samples.

Results

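The comparison of passage 7 (P7) with passage 3 (P3) rested on 8 RNA-seq libraries of mouse skin fibroblasts, 4 of P7 and 4 of P3, out of 75 samples in the series. They were chosen by passage and assay from the sample labels alone, and every gene of the count tables was used. The cells were untreated skin fibroblasts of C57BL/6 mice, which the methods give as females aged 2 months, grown in high-glucose DMEM with fetal bovine serum, penicillin-streptomycin and the anti-mycoplasma agent Plasmocin and split again and again as they came close to confluence. No transgene or virus was used and the medium was the same at both passages, so the groups differed in passage number and, with it, in time spent in culture, and these cannot be told apart. P3 served as the young state because more transcripts of other skin cells were present at P1. The labels do not say whether the libraries of a passage came from separate mice or dishes, so the p-values below measure only the spread between these libraries.

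Normal cells stop dividing after a limited number of divisions, and this lasting arrest is called replicative senescence. In the textbook scheme, inhibitors of cyclin-dependent kinases (CDKs), above all the products of Cdkn2a and Cdkn1a, leave the retinoblastoma family of proteins unphosphorylated. These proteins then hold E2F factors and the DREAM complex, which contains E2F4, on the genes of S phase and mitosis and keep those genes silent. Senescent fibroblasts are also known for an enlarged lysosomal compartment and for secretion of cytokines, chemokines, growth factors and proteases, the senescence-associated secretory phenotype (SASP).

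The libraries held 13846345 to 15385843 counts at P3 and 13866009 to 14227633 at P7, and the 10 most abundant genes took 8.17 to 8.82% of the counts at P3 and 9.97 to 10.38% at P7. The first principal component over the 8 libraries held 65.5% of the variance and separated the passages. Values of single genes are CPM, counts divided by the TMM-scaled library size and brought to a common total, and fold changes are P7 over P3 on the log2 scale.

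The label of skin fibroblast fitted the abundant genes of both passages, but the P3 cultures still held transcripts of other cell types. The 15 fibroblast markers summed to between 32480 and 38090 CPM at P3 and between 36920 and 39850 at P7. Pdgfra, the receptor that marks dermal fibroblasts, stood at 370.4, 372, 399 and 306 CPM in the P3 libraries and 303, 254, 349.8 and 229.5 CPM at P7, and the groups overlapped (log2 fold change -0.35, SE 0.15, adjusted p = 0.0565). The call on Pdgfra depended on the fit, since its fold change passed the test without P3 replicate 4 (-0.41, adjusted p = 0.0391), without P7 replicate 3 (-0.45, adjusted p = 0.0209), with no filter on low counts (-0.36, adjusted p = 0.039) and with only the P3 and P7 libraries fitted (-0.33, adjusted p = 0.0456).

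Endothelial transcripts were low at P3 and lower at P7. The 10 endothelial markers summed to 192.3 to 212.7 CPM at P1, 50.29 to 62.5 CPM at P3 and 12.47 to 16.51 CPM at P7, and 9 of the 10 were called lower at P7. Of all genes tested, 4.44% were called higher and 7.41% lower. Pecam1 (CD31), the adhesion molecule of vessel walls, lay at 4.6, 6.72, 4.38 and 6.73 CPM at P3 and 0.0763, 0.386, 0 and 0.594 CPM at P7 (log2 fold change -4.35, SE 0.45, adjusted p = 2.6e-07). Kdr, the VEGF receptor of endothelium, lay at 21.5, 18.5, 19.9 and 16.9 CPM at P3 and 4.96, 5.63, 7.3 and 3.56 CPM at P7 (log2 fold change -1.84, SE 0.20, adjusted p = 4.51e-07). The P3 and P7 libraries of both genes were clear of each other. Tie1, an endothelial receptor kinase, fell from 172 counts over the P3 libraries to 3 counts at P7, a ratio of 51.1 (95% counting interval 17.2 to 250). Cldn5, the claudin of vascular tight junctions, went from 85 counts to 0, which is at least 25.2-fold lower against a floor of 3 counts over the group.

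Markers of the remaining cell types were mixed, and their calls are read against the same shares of all genes. Of the 14 muscle markers 11 could be tested and 7 were called lower, against 2 with only the P3 and P7 libraries fitted and 0 with at least 10 counts required in every library. Myh3, embryonic myosin heavy chain, went from 135 to 1 count (ratio 120, interval 21.2 to 4790), Myh8, the perinatal myosin, from 40 to 2 counts (ratio 17.8, interval 4.62 to 152), and Myod1, Myog, Myf5 and Ckm were at 0 counts at P7. The summed muscle level, 56.42 to 62.17 CPM at P3 and 42.46 to 111.2 CPM at P7, was made up mostly of Acta1, skeletal actin. Of the 12 macrophage markers, 6 were called lower and 1, the receptor Csf1r, higher, and their sums overlapped (49.37 to 68.04 CPM at P3, 35.82 to 57.08 CPM at P7). Lyz2, macrophage lysozyme, stood at 38.97, 40.9, 29.7 and 24.1 CPM at P3 and 16.7, 13.6, 10.4 and 25.9 CPM at P7 (log2 fold change -1.002, SE 0.24, adjusted p = 0.00197), with P7 replicate 4 among the P3 values, and it fell just short of 2-fold in several fits, such as that without P7 replicate 3 (-0.82). Without P3 replicate 2, P7 replicate 2 or P7 replicate 3, 3 macrophage markers were called lower in place of 6. The 12 keratinocyte markers summed to 4.733 to 7.973 CPM at P3 and 9.924 to 13.43 CPM at P7, with Krt14, Krt1, Krt17 and Dsg3 at 0 counts at P7, and 1 of 10 tested, Dsp, was called higher. Most of the higher keratinocyte sum lay in Dsp (means of 0.7287 and 3.275 CPM) and Sfn (3.283 and 5.312 CPM), while the median log2 fold change of the 10 was -0.97. Adipocyte markers summed to 229.8 to 413.8 CPM at P3 and 128.3 to 309.1 CPM at P7, with Adipoq and Plin1 at 0 at P7, and 1 of 4 tested, the fatty-acid transporter Cd36, was called lower (221 counts against 1, ratio 197, interval 35 to 7810). Schwann cell and melanocyte markers summed to 90.33 to 127.1 CPM and 57.8 to 177.1 CPM, and pericyte markers to 198.6 to 350.4 CPM and 104.1 to 233.2 CPM, each with 1 member called lower, Mbp and Cspg4 respectively.

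**Figure D1:**
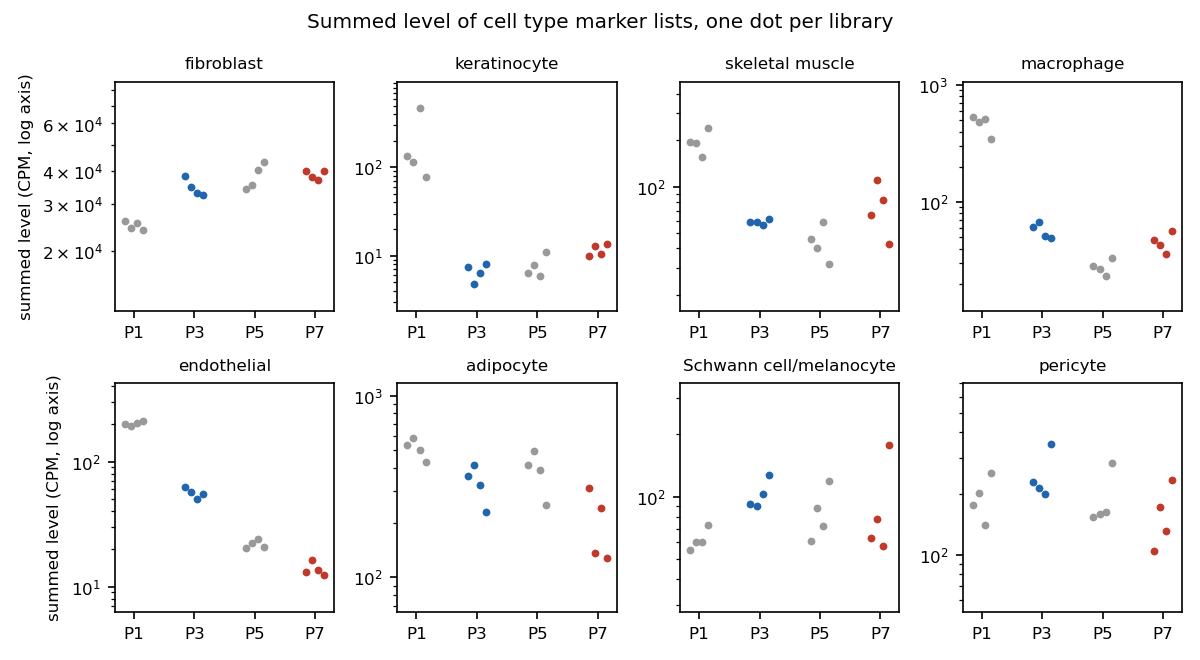
Summed CPM of each marker list in the 16 libraries of P1, P3, P5 and P7, with 1 point per library and passages along the x axis, on a log y axis. Endothelial sums of 50.29 to 62.5 CPM at P3 lie apart from 12.47 to 16.51 CPM at P7, whereas the fibroblast, macrophage, adipocyte and pericyte sums of the passages overlap.

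In bulk RNA, fewer cells of a type and less RNA per cell cannot be told apart, and this holds for every value below. The part of other cells in the difference between the passages was not tested. Of the genes called lower at P7, 25 belonged to the lists of other cell types, and 262 (26.3%) had already been more than 2-fold higher at P1 than at P3. Among the 100 lowest by fold change the latter made up 78. Without the 262 genes, 734 lower genes were left. The filter on low counts used all 16 libraries, so genes scarce at P3 and P7 could be tested through their P1 counts. These shares can thus be set in part by the filter. With only the P3 and P7 libraries fitted, 12683 genes were tested and 781 were called lower.

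Of 24984 genes in the count tables, 13442 had enough counts to be tested. With edgeR's quasi-likelihood test, 597 genes (4.44%) were higher at P7 and 996 (7.41%) were lower, at an adjusted p under 0.05 and a change of more than 2-fold. Without the fold limit the test passed 3338 genes (24.8%) as higher and 3558 (26.5%) as lower. All 4 P7 libraries lay above all 4 P3 libraries for 2790 genes (20.8%) and below them for 3039 (22.6%). The median log2 fold change over all tested genes was -0.0073, so the lists below are read against 0 and against these shares.

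**Figure D2:**
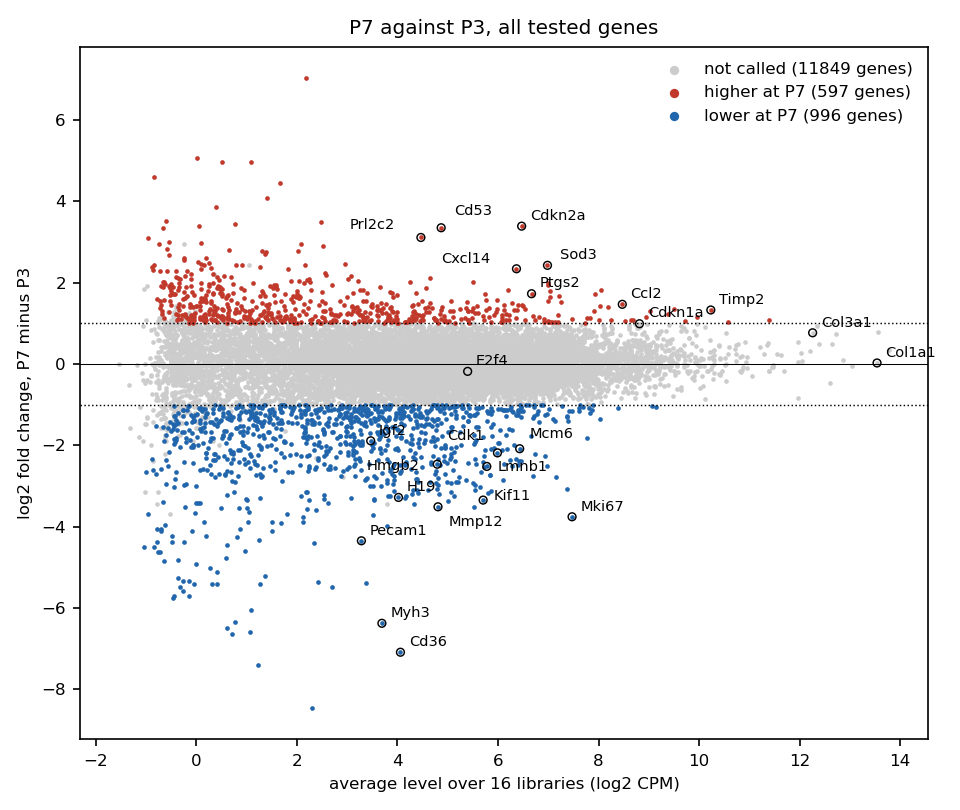
Log2 fold change of P7 over P3 against the average log2 CPM for the 13442 genes tested, with the 597 genes called higher in red, the 996 called lower in blue and some of the genes of the text labelled. The lower genes with the largest changes are at low expression. Among the labelled genes Cdkn2a, Cd53 and Prl2c2 rise most, while some unlabelled genes at low level lie above them.

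The CDK inhibitors did not move as a group. Of 7 tested, Cdkn2a and Cdkn2b were called higher and Cdkn2c lower. Cdkn2a (chromosome 4, 89274473 to 89294619 on mm10), whose transcripts encode both p16INK4a and p19ARF and share a single row of the count table, stood at 20.5, 23.7, 16.3 and 25.1 CPM in the P3 libraries. At P7 it stood at 269, 224, 179.5 and 225 CPM, and every P7 library was far above every P3 library (log2 fold change 3.39, SE 0.24, adjusted p = 1.01e-09). Cdkn2b, which encodes the neighbouring inhibitor p15INK4b, had 21.3, 26.5, 21.5 and 29.2 CPM at P3 and 54.9, 50.3, 49.7 and 63.2 CPM at P7, with no overlap (log2 fold change 1.15, SE 0.17, adjusted p = 1.65e-05). Cdkn1a, encoding p21, stood at 349.9, 329, 301 and 389 CPM at P3 and 674, 722, 641 and 682 CPM at P7. The groups of Cdkn1a did not overlap and the test passed (log2 fold change 0.99, SE 0.11, adjusted p = 4.11e-07), just under the 2-fold limit. Cdkn2c, encoding p18INK4c, went the other way, from 31.9, 28.1, 32.4 and 29.2 CPM to 19.8, 16.7, 14.99 and 8.91 CPM (log2 fold change -1.01, SE 0.17, adjusted p = 6.92e-05). It fell short of 2-fold without P3 replicate 1 (-0.99), P3 replicate 3 (-0.98), P7 replicate 3 (-0.9998) or P7 replicate 4 (-0.83), and with only the P3 and P7 libraries fitted (-0.99), while Cdkn1a passed 2-fold without P3 replicate 1 (1.002), P3 replicate 4 (1.07) or P7 replicate 3 (1.03) and with only the P3 and P7 libraries (1.01).

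Genes of the cell cycle fell, those of mitosis most completely. All 23 genes of the list for mitosis and chromosome segregation were called lower, with a median log2 fold change of -2.90, and all 13 genes of homologous recombination were called lower, with a median of -2.28. Of 21 cyclins and cell-cycle kinases, 12 were called lower and 0 higher (median -2.04). Of 21 genes for licensing and firing of replication origins, 14 were called lower and 0 higher (median -1.61). Nucleotide synthesis (7 of 21 called lower, median -0.68) and the E2F, RB and DREAM factors themselves (8 of 20 called lower, median -0.42) had lower shares, with 0 called higher in either. Every one of these shares stood above the 7.41% of all genes called lower.

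Mki67, the Ki-67 protein that coats mitotic chromosomes and marks dividing cells, stood at 239, 241, 330.2 and 318 CPM at P3. At P7 it stood at 20.1, 18.2, 25.8 and 19.2 CPM, every library far below the lowest P3 library (log2 fold change -3.76, SE 0.20, adjusted p = 7.1e-11). Cenpf, a kinetochore protein, changed by -3.52 (SE 0.20, adjusted p = 7.11e-11), and Kif15, a spindle motor, by -3.43 (SE 0.17, adjusted p = 2.79e-11). Kif11, the motor that pushes spindle poles apart, had 75.1, 79.8, 90.7 and 85.4 CPM at P3 and 9.62, 7.56, 9.3 and 6.01 CPM at P7 (log2 fold change -3.35, SE 0.15, adjusted p = 1.1e-11). The P3 and P7 libraries of these genes did not overlap.

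Among the regulators of the cell cycle, Ccnb1, the cyclin B1 that drives entry into mitosis, had 103, 106, 110.5 and 110.4 CPM at P3 and 14.3, 17.4, 18.98 and 9.06 CPM at P7 (log2 fold change -2.85, SE 0.19, adjusted p = 7.64e-10). Its kinase Cdk1 had 87.01, 82.6, 95.5 and 90.6 CPM at P3 and 23.1, 24.1, 18.9 and 12.1 CPM at P7 (log2 fold change -2.19, SE 0.17, adjusted p = 4.21e-09). In both genes P7 replicate 4 was the lowest library, and the groups did not overlap. Bub1, a kinase of the spindle checkpoint, fell by 3.21 on the log2 scale, from 47.5 ± 6.62 CPM to 5.14 ± 1.77 CPM (mean ± SD, n = 4). Ccna2, cyclin A2, fell by 3.14, from 90.5 ± 5.96 CPM to 10.3 ± 1.78 CPM (mean ± SD, n = 4), although 378 exonic bases of Ccna2 are shared with Exosc9 and the counting ignored strand. Of the 21 genes of this list 4 passed the test as higher, all under 2-fold, a share under the 24.8% of all genes. They were the D cyclins Ccnd1 (0.57), Ccnd2 (0.65) and Ccnd3 (0.72), which act before S phase, and their partner Cdk6 (0.29). These 4 were named after their values were seen.

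Of the replication genes, Mcm6, a subunit of the replicative helicase, had 112, 112, 119 and 107 CPM at P3 and 25.9, 30.02, 25.8 and 24.4 CPM at P7, with the 4 libraries of each passage close together and far from the other group (log2 fold change -2.08, SE 0.13, adjusted p = 3.26e-10). Mcm10 and Cdc6, which act at the loading and start of the helicase, changed by -3.004 (SE 0.21, adjusted p = 1.01e-09) and -2.63 (SE 0.21, adjusted p = 7.79e-09), and Mcm5 by -2.401 (SE 0.13, adjusted p = 5.33e-11). Tk1, thymidine kinase, changed by -2.16 (SE 0.17, adjusted p = 5.26e-09), and Rrm1, the large subunit of ribonucleotide reductase, by -1.83 (SE 0.13, adjusted p = 1.31e-09). For Tk1, 325 exonic bases are shared with Afmid. Exo1 and Brca1, which resect broken ends and guide their repair, changed by -2.996 (SE 0.18, adjusted p = 2e-10) and -2.63 (SE 0.15, adjusted p = 1.03e-10).

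The transcription factors upstream of these genes differed among themselves. E2f7 and E2f8, E2F members that repress, changed by -2.74 (SE 0.21, adjusted p = 4.69e-09) and -2.85 (SE 0.24, adjusted p = 1.19e-08). Mybl2, which joins MuvB to switch on mitotic genes, changed by -2.95 (SE 0.16, adjusted p = 5.33e-11). Foxm1, the forkhead activator of mitotic genes, had 73.9, 60.1, 76.7 and 72.4 CPM at P3 and 9.31, 15.3, 13.1 and 11.6 CPM at P7 (log2 fold change -2.52, SE 0.14, adjusted p = 1e-10). E2f4, the repressor E2F of the DREAM complex, had 42.2, 39.9, 45.9 and 44.8 CPM at P3 and 39.9, 41.9, 37.05 and 33.6 CPM at P7. The groups of E2f4 overlapped, and its change did not pass the test (log2 fold change -0.18, SE 0.09, adjusted p = 0.0897), except without P7 replicate 2 (-0.23, adjusted p = 0.0487).

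Promoters of 4 of the genes above are printed because each holds an E2F site or a CHR, both defined below. By these sequences E2F factors and the DREAM complex are known to bind. CCAAT is not one of them, but it is marked as well and enters the counts of matches. Each line is the 250 bases ahead of an annotated start in the RefSeq annotation of GRCm38.p6, the assembly of mm10, written 5′ to 3′ on the strand of the gene. Capitals mark every match, on either strand, to E2F sites (TTCCCGC or TTGGCGC), the cell cycle genes homology region or CHR (TTTGAA), or CCAAT. The windows are chr1:128359706-128359955 on the minus strand for Mcm6, chr10:69352913-69353162 on the minus strand for Cdk1, chr13:100786487-100786736 on the minus strand for Ccnb1 and chr19:37376132-37376381 on the plus strand for Kif11. They hold 4 matches in Mcm6, 6 in Cdk1, 3 in Ccnb1 and 2 in Kif11, CCAAT included, and the window of Kif11 holds no E2F match.
Mcm6: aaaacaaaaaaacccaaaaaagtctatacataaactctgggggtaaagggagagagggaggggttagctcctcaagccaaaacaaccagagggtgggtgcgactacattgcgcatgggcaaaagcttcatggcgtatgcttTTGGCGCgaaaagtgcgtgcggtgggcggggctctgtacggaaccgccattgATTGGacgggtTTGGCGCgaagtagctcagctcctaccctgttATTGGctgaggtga
Cdk1: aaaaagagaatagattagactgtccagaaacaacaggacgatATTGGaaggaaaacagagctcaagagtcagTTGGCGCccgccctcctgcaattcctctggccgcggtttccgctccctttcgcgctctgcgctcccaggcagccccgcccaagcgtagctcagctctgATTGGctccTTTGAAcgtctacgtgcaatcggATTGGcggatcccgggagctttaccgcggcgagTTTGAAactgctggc
Ccnb1: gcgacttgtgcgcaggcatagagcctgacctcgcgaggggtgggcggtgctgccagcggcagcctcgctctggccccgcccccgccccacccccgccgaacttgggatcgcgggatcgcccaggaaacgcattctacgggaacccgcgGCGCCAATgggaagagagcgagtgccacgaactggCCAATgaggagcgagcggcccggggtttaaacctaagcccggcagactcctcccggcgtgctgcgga
Kif11: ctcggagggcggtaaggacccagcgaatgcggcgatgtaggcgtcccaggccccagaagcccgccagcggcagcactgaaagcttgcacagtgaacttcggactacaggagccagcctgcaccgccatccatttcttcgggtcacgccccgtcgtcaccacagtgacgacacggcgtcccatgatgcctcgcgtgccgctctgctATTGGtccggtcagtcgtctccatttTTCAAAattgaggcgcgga

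In such windows of 250 bases, read from the genome for 13047 tested genes, an E2F match of either form stood in 16.8% of the promoters of genes called lower, 11.6% of all tested genes and 7.01% of genes called higher. TTTGAA stood in 19.2% of the lower, 12.9% of all and 13.8% of the higher, and CCAAT in 46.4%, 40.7% and 40% respectively. An E2F match together with TTTGAA stood in 3.62% of the lower, 1.5% of all and 0.513% of the higher. The reverse complement of CCAAT shares 4 bases with the second E2F motif, so both can match at 1 place. Of the licensing genes 10 of 21 held an E2F match and 18 of 21 held CCAAT, and of 22 mitosis genes with a window 2 held an E2F match, 6 held TTTGAA and 16 held CCAAT. The AP-1 site TGAGTCA stood in 6.15% of the higher, 3.93% of the lower and 4.22% of all, and the TEAD site GGAATG in 17.4%, 13.4% and 13.3%. A match is a stretch of letters and not a measurement of binding. With no fold limit on the genes, the share with AP-1 in the higher genes was 4.38% and the share with TTTGAA in the lower genes 14.9%.

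**Figure D3:**
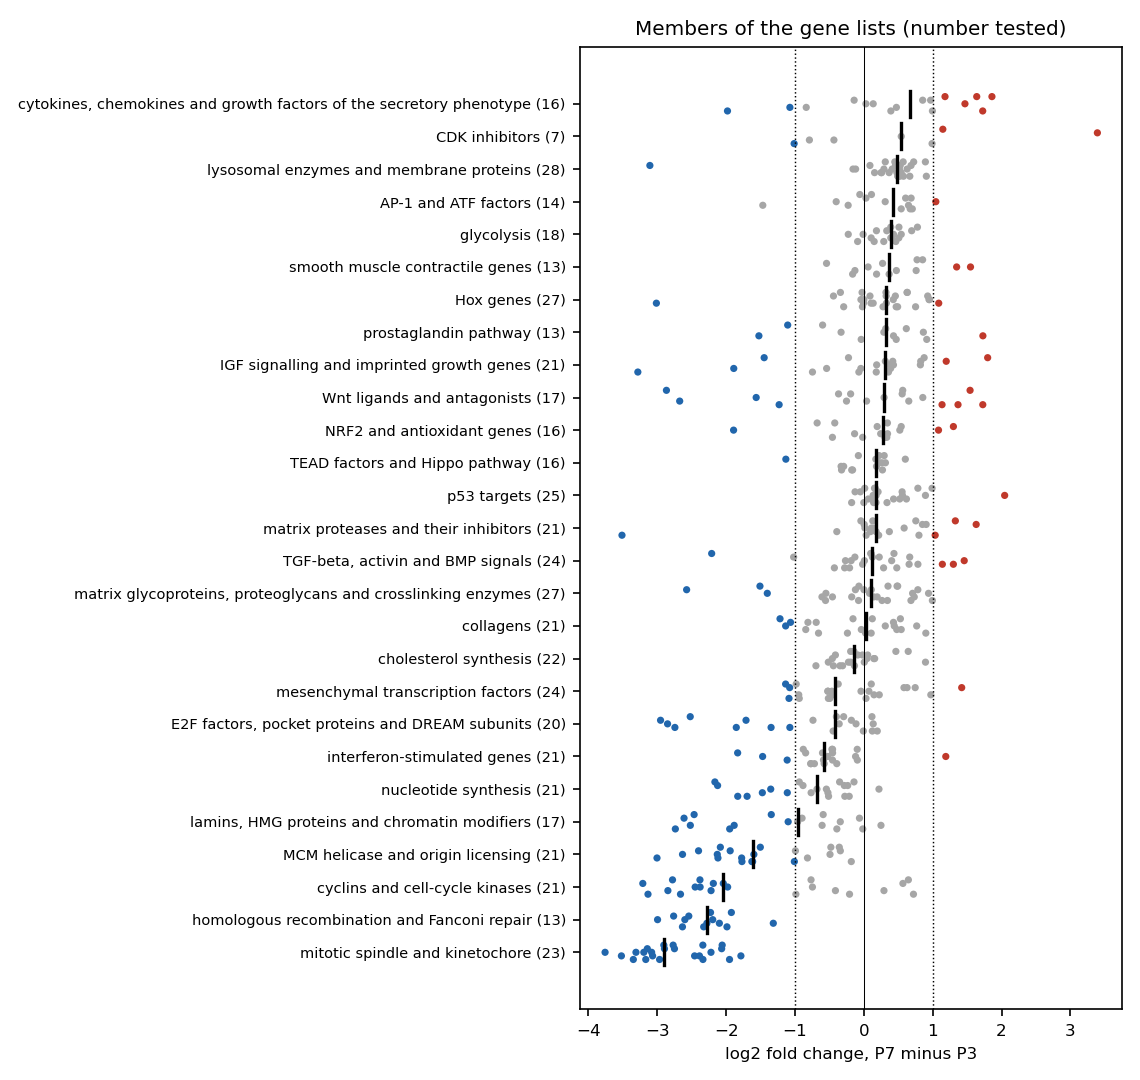
Log2 fold changes of the tested members of each gene list, 1 point per gene (red called higher, blue called lower, gray not called), with the median of each list as a bar. Every member of the mitosis, homologous recombination and origin licensing lists lies below 0. So do 20 of 21 genes of nucleotide synthesis, 16 of 17 of nuclear structure and chromatin and 20 of 21 interferon-stimulated genes. Of the cyclins and cell-cycle kinases 17 of 21 lie below 0 and 4 above. Most other lists straddle 0.

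The lower genes included nuclear structure and chromatin. Of 17 such genes 8 were called lower and 0 higher, with a median of -0.96. Lmnb1, lamin B1 of the nuclear envelope, whose loss is a known mark of senescent cells, had 81.3, 70.03, 87.3 and 77.6 CPM at P3 and 14.2, 15.4, 14.5 and 10.99 CPM at P7 (log2 fold change -2.52, SE 0.13, adjusted p = 5.33e-11). Hmgb2, a DNA-bending chromatin protein, had 37.5, 26.8, 39.01 and 32.8 CPM and 6.95, 5.48, 8.07 and 4.16 CPM (log2 fold change -2.47, SE 0.17, adjusted p = 1.06e-09). The P7 libraries of both genes lay well below all P3 libraries. Uhrf1, which brings the maintenance DNA methyltransferase to new DNA, changed by -2.74 (SE 0.15, adjusted p = 7.11e-11), and Hells, a remodeler also needed for DNA methylation, by -2.61 (SE 0.16, adjusted p = 2.37e-10). A histone H4 gene, Hist1h4i, was called higher, from 3.86 ± 0.48 CPM to 15.9 ± 2.71 CPM (mean ± SD, n = 4), but its reads are shared with near-identical H4 genes and its count is uncertain.

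Targets of p53 mostly changed by less than 2-fold. Of 25 tested, 1 was called higher and 0 lower, while 10 passed the test as higher without the fold limit and 0 as lower, against 24.8% of all genes that passed as higher (median 0.18). The called gene was Perp, a p53 target of desmosomes, at 1.91, 1.3, 0.451 and 1.46 CPM at P3 and 5.27, 6.17, 4.46 and 5.27 CPM at P7 (log2 fold change 2.05, SE 0.42, adjusted p = 0.000465). Its groups did not overlap, and its level at P1 was 8.44 ± 5.82 CPM (mean ± SD, n = 4). Dsp, desmoplakin of the same junctions, had 0.92, 0.206, 0.838 and 0.951 CPM at P3 and 1.37, 3.63, 2.46 and 5.64 CPM at P7 (log2 fold change 2.16, SE 0.66, adjusted p = 0.0102). Dsp is itself one of the keratinocyte markers, the 1 of 10 that passed the test as higher, and the part of such cells in either change was not tested.

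At the level of RNA, the genes of the SASP rose only in part, and these libraries do not measure secretion. The paper reports that SASP factors in the culture supernatant, measured by Luminex, rose strongly as cells became senescent. From RNA it also reports gene sets of TNF-α signalling, IL-2 and the inflammatory response as up-regulated at late senescence. That comparison was of P7 with P5 and used whole gene sets, whereas the values here are of single genes against P3. Of 25 cytokines, chemokines and growth factors, 16 could be tested, and Il1a, Il1b, Cxcl2, Ccl5, Ccl20, Csf2, Csf3, Tnf and Areg had too few counts. Of the 16, 5 were called higher and 2 lower, against 4.44% and 7.41% of all genes. Their median was 0.66, and 8 were called higher without P7 replicate 4. Ccl2, the monocyte chemoattractant (chromosome 11, 82035577 to 82037452), had 218, 154, 197 and 197 CPM at P3 and 635, 443, 526 and 516 CPM at P7, all above P3 (log2 fold change 1.47, SE 0.15, adjusted p = 1.82e-07). The eotaxin Ccl11 had 13.9, 16.5, 12.8 and 14.1 CPM at P3 and 71.4, 28.2, 43.9 and 46.02 CPM at P7 (log2 fold change 1.73, SE 0.22, adjusted p = 2.73e-06). These ranges did not overlap either, but the P1 mean of 131 CPM was above both passages. Ccl8 changed by 1.64 (SE 0.18, adjusted p = 4.39e-07) and Cxcl5, a neutrophil chemokine, by 1.86 (SE 0.44, adjusted p = 0.00158).

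Il6, the best known SASP cytokine, had 4.21, 8.51, 5.48 and 5.71 CPM at P3 and 16.1, 9.64, 13.6 and 8.31 CPM at P7 (log2 fold change 0.996, SE 0.33, adjusted p = 0.0168). The ranges overlapped in 1 library of each passage, the 2-fold limit was narrowly missed, and the test was lost without P3 replicate 1 (0.86, adjusted p = 0.0535) or P7 replicate 1 (0.82, adjusted p = 0.0647). Cxcl1 had 3.81, 3.57, 5.87 and 3.88 CPM and 12.1, 6.71, 8.07 and 4.23 CPM (log2 fold change 0.85, SE 0.35, adjusted p = 0.0503). Cxcl1 just missed the threshold here and passed in other fits, with DESeq2 (0.86, adjusted p = 0.0299), with DESeq2 size factors (adjusted p = 0.0481), with no filter on low counts (adjusted p = 0.0337), with only the P3 and P7 libraries (0.87, adjusted p = 0.0171), and without P3 replicate 3 (1.05, adjusted p = 0.0364) or P7 replicate 4 (1.06, adjusted p = 0.0163). Cxcl12, the stromal chemokine that retains blood precursors, was called lower (log2 fold change -1.07, SE 0.21, adjusted p = 0.000329), from 219.8, 185, 191 and 94.6 CPM to 99.8, 68.3, 94.4 and 65.5 CPM, with P3 replicate 4 inside the P7 range, and fell short of 2-fold without P3 replicate 1 (-0.94), P7 replicate 2 (-0.996) or P7 replicate 4 (-0.98). Cxcl10, an interferon-induced chemokine, was called lower at 0.998 ± 0.464 and 0.244 ± 0.252 CPM (mean ± SD, n = 4), and lost the call without P3 replicate 1, P7 replicate 2 or P7 replicate 3 (-1.63, -1.58 and -1.81, adjusted p = 0.0801, 0.0669 and 0.058).

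Among 21 tested proteases and inhibitors, 3 were called higher and 1 lower, against 4.44% and 7.41% of all genes (median 0.18). Timp2 and Timp3, inhibitors of metalloproteinases, were among the higher. Timp2 stood at 819, 787, 719 and 879 CPM at P3 and 1795, 2067, 2052 and 2136 CPM at P7 (log2 fold change 1.33, SE 0.11, adjusted p = 1.79e-08), and Timp3 at 1245, 1461, 1150 and 1412 CPM and 2136, 2828, 2772 and 3068 CPM (log2 fold change 1.04, SE 0.14, adjusted p = 8.53e-06). No library of P7 overlapped P3 in either gene, but Timp3 fell short of 2-fold without P3 replicate 3 (0.98) or P7 replicate 4 (0.97). Mmp10, stromelysin 2, was the third, with a change of 1.63 (SE 0.30, adjusted p = 0.000154) at a mean of 6.86 CPM at P7. Mmp3, stromelysin 1, had 47.4, 52.5, 63.8 and 36.4 CPM at P3 and 55.5, 59.3, 39.7 and 59.5 CPM at P7, which overlapped (log2 fold change 0.096, SE 0.21, adjusted p = 0.72). Mmp12, the macrophage metalloelastase, had 7.23, 7.27, 7.74 and 6.73 CPM and 0.305, 0.463, 0.0769 and 1.63 CPM (log2 fold change -3.51, SE 0.43, adjusted p = 1.81e-06), after 102 ± 20.5 CPM at P1 (mean ± SD, n = 4). It fell alongside the 6 macrophage markers, and its highest P7 library was replicate 4, as for Lyz2. The part of macrophages in the change of Mmp12 was not tested.

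Ptgs2, the inducible cyclooxygenase of prostaglandin synthesis (chromosome 1, 150100031 to 150108234), had 60.99, 81.5, 77.2 and 89.3 CPM at P3 and 215, 302, 297 and 211 CPM at P7, well separated (log2 fold change 1.73, SE 0.19, adjusted p = 7.37e-07). Hpgd, which breaks prostaglandins down, changed by -1.52 (SE 0.26, adjusted p = 7.5e-05). Ptger3, a receptor of prostaglandin E2, was called lower (log2 fold change -1.11, SE 0.38, adjusted p = 0.0207), but not without P3 replicate 2, P7 replicate 2 or P7 replicate 3 (-0.92, -0.996 and -0.92, adjusted p = 0.072, 0.0613 and 0.0689). These were the called genes of the 13 tested in this list, whose median was 0.32.

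Interferon-stimulated genes were mostly lower. Of 21 tested, 3 were called lower and 1 higher, and 12 passed as lower without the fold limit, against 26.5% of all genes, with a median of -0.58. Oasl2, Oasl1 and Ifih1, which sense or respond to double-stranded RNA, changed by -1.83 (SE 0.28, adjusted p = 3.18e-05), -1.47 (SE 0.44, adjusted p = 0.00859) and -1.11 (SE 0.15, adjusted p = 6.11e-06). Ifit3, an antiviral protein with a near-identical copy, was the exception at 1.19 (SE 0.19, adjusted p = 3.37e-05).

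The AP-1 and ATF factors had 1 of 14 called higher, against 4.44% of all genes (median 0.43). Without the fold limit 7 passed as higher and 1 as lower, against 24.8% and 26.5% of all genes. Maff, a small Maf factor, stood at 53.2, 43.01, 50.2 and 44.8 CPM at P3 and 107, 117, 95.6 and 75.5 CPM at P7 (log2 fold change 1.05, SE 0.14, adjusted p = 4.35e-06), and fell just short of 2-fold without P3 replicate 2 (0.9986) or P7 replicate 2 (0.95). Fos, Jund and Junb, subunits of AP-1, changed by 0.67 (SE 0.16, adjusted p = 0.00142), 0.65 (SE 0.18, adjusted p = 0.00481) and 0.54 (SE 0.18, adjusted p = 0.0167). Junb did not pass without P3 replicate 4 (0.46, adjusted p = 0.055), P7 replicate 1 (0.44, adjusted p = 0.0624) or P7 replicate 2 (0.44, adjusted p = 0.0664). Atf3, a stress-induced ATF factor, had 9.6, 9.88, 9.61 and 9.8 CPM at P3 and 10.5, 12.8, 9.45 and 26.4 CPM at P7, so that P7 replicate 4 was the only library well above P3. The test passed with all libraries (log2 fold change 0.61, SE 0.24, adjusted p = 0.0374), but without P7 replicate 4 the change was 0.17 (adjusted p = 0.373), and without any 1 P3 library the adjusted p lay between 0.0593 and 0.0718.

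TEAD factors and targets of the Hippo pathway did not move together, with 0 of 16 called higher, 1 called lower and a median of 0.18. Of all genes 4.44% were called higher and 7.41% lower. Tead1, a TEAD factor, had 417, 447, 481 and 545 CPM at P3 and 279.5, 406, 409 and 417 CPM at P7. The groups did not overlap, though the highest P7 libraries came close to the lowest of P3 (log2 fold change -0.32, SE 0.12, adjusted p = 0.0365), but the change failed the test without P3 replicate 3 (-0.31, adjusted p = 0.0731), P3 replicate 4 (-0.24, adjusted p = 0.14) or P7 replicate 1 (-0.20, adjusted p = 0.129). Tead4 was the called member (log2 fold change -1.13, SE 0.28, adjusted p = 0.00255), at 4.28 ± 1.4 CPM and 1.95 ± 0.655 CPM (mean ± SD, n = 4). It lost the call without P3 replicate 4 (-0.93, adjusted p = 0.0131) and in a test against a fold change of 1.5 (adjusted p = 0.0746).

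Matrix genes changed in both directions and mostly under 2-fold. Of 21 collagen genes 3 were called lower and 0 higher (median 0.03), and of 27 other matrix genes 3 lower and 0 higher (median 0.11). The shares of all genes were 7.41% lower and 4.44% higher. Col1a1, the main chain of type I collagen, stood at 14980, 11490, 12290 and 12160 CPM at P3 and 12420, 13170, 12520 and 13710 CPM at P7 and overlapped (log2 fold change 0.03, SE 0.11, adjusted p = 0.868). Col3a1, the chain of type III collagen, had 4417, 4906, 3965 and 3741 CPM and 8094, 6223, 6878 and 7799 CPM, with no overlap (log2 fold change 0.77, SE 0.13, adjusted p = 0.000112). Postn, periostin, overlapped (log2 fold change -0.08, SE 0.22, adjusted p = 0.787). Called lower were Col14a1 (-1.14) and Mfap4 (-2.57), which organize fibrils, Col5a3 (-1.06), the small proteoglycan Ogn (-1.51), elastin, Eln (-1.402), and Col8a2 (-1.22). Col8a2 lost the call in 6 of 8 fits that left out a library (adjusted p = 0.0524 to 0.111), all but those without P3 replicate 4 or P7 replicate 1. Col5a3 fell short of 2-fold without P3 replicate 1 (-0.97), P7 replicate 1 (-0.95) or P7 replicate 3 (-0.91), and Col14a1 without P7 replicate 1 (-0.93), so that 1 collagen was called lower in each of these 3 fits.

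Of 13 contractile genes 2 were called higher and 0 lower, against 4.44% and 7.41% of all genes (median 0.37). Cnn1, calponin of smooth muscle, had 66.8, 75.7, 73.2 and 99.99 CPM at P3 and 188, 273, 189.8 and 153 CPM at P7 (log2 fold change 1.35, SE 0.16, adjusted p = 1.45e-06). Myh11, smooth muscle myosin, changed by 1.55 (SE 0.31, adjusted p = 0.000354), with P3 replicate 4 inside the P7 range. Acta2, smooth muscle actin, had 2820, 2916, 3164 and 4471 CPM and 2757, 3760, 2596 and 2832 CPM (log2 fold change -0.16, SE 0.16, adjusted p = 0.406), so its groups overlapped.

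Of 24 genes of TGF-β, activin and BMP signalling, 3 were called higher and 1 lower, against 4.44% and 7.41% of all genes. Their median was 0.11, and 14 passed the test in neither direction. Grem1, gremlin, an antagonist of BMPs, had 400.2, 369, 404 and 363 CPM at P3 and 835, 867, 1116 and 965 CPM at P7 (log2 fold change 1.300, SE 0.10, adjusted p = 3e-09). Fst, follistatin, which binds activins, had 40.7, 49.9, 49.3 and 49.9 CPM and 125, 129.5, 138 and 128 CPM (log2 fold change 1.46, SE 0.10, adjusted p = 1.31e-09). Inhbb, a subunit of activin B, changed by 1.14 (SE 0.09, adjusted p = 3.05e-09). No library of P7 overlapped P3 in these genes. The ligand Bmp4 was the member called lower (log2 fold change -2.21, SE 0.45, adjusted p = 0.00047), at 4.73 ± 3.15 CPM and 1.01 ± 0.486 CPM (mean ± SD, n = 4).

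The Wnt list was split, with 4 called higher and 4 lower of 17 tested, a share above the background in both directions (median 0.29). Sfrp1, a secreted Wnt antagonist, had 34.9, 38, 33.4 and 20.3 CPM at P3 and 99.5, 71.6, 116 and 40.4 CPM at P7 (log2 fold change 1.37, SE 0.26, adjusted p = 0.000266). The related Sfrp2 went the other way, from 8.28, 11.2, 6.19 and 3.15 CPM to 1.53, 0.772, 1.38 and 0.817 CPM (log2 fold change -2.67, SE 0.41, adjusted p = 2.65e-05), and had stood at 37.7 ± 11.5 CPM at P1 (mean ± SD, n = 4). Wnt11, a ligand, and Wif1, an antagonist, changed by 1.54 (SE 0.29, adjusted p = 0.000251) and 1.73 (SE 0.45, adjusted p = 0.00363). Rspo1 and Rspo2, which enhance Wnt signals, and Lef1, the nuclear effector, changed by -2.87 (SE 0.63, adjusted p = 0.000932), -1.23 (SE 0.36, adjusted p = 0.00732) and -1.56 (SE 0.30, adjusted p = 0.000282).

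Of 21 genes of IGF signalling and imprinted growth control, 2 were called higher and 3 lower, against 4.44% and 7.41% of all genes (median 0.31). H19, an imprinted long RNA (chromosome 7, 142575530 to 142578146), had 7.36, 9.12, 7.22 and 9.22 CPM at P3 and 1.22, 0.386, 0.692 and 1.04 CPM at P7 (log2 fold change -3.28, SE 0.29, adjusted p = 3.05e-08). Its neighbour Igf2, a fetal growth factor, had 6.64, 3.98, 3.67 and 6.73 CPM and 1.22, 1.39, 1.84 and 1.19 CPM (log2 fold change -1.89, SE 0.27, adjusted p = 1.52e-05). Both were far higher at P1, at 52.7 ± 12.2 and 35.2 ± 9.03 CPM (mean ± SD, n = 4). Plagl1, an imprinted zinc finger, changed by -1.45 (SE 0.20, adjusted p = 9.78e-06), and shares 218 exonic bases with Hymai. The imprinted RNA Meg3 had 42.6, 49.2, 50.9 and 48.1 CPM at P3 and 105, 81.6, 124 and 127 CPM at P7 (log2 fold change 1.196, SE 0.16, adjusted p = 4.74e-06), but it overlaps the antisense gene Rtl1 and the counting ignored strand. Igfbp2, a binding protein of IGFs, had 64.7, 57.8, 47.97 and 151 CPM and 249.6, 311, 238 and 318 CPM (log2 fold change 1.798, SE 0.37, adjusted p = 0.000475), with P3 replicate 4 well above the other P3 libraries and still below P7.

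Positional and lineage factors mostly changed by less than 2-fold. Of 27 tested Hox genes 11 passed as higher and 2 as lower without the fold limit, against 24.8% and 26.5% of all genes (median 0.32). With the limit 1 was called higher and 1 lower, Hoxb5 (log2 fold change 1.09, SE 0.25, adjusted p = 0.00117) and Hoxd10 (log2 fold change -3.01, SE 0.71, adjusted p = 0.00165), though Hoxb5 fell short of 2-fold without P3 replicate 2 (0.94). Hoxd10 was near the limit of detection at P7, with 0.077 CPM. Of 24 mesenchymal transcription factors 1 was called higher and 3 lower (median -0.41). Without the fold limit 11 passed as lower and 4 as higher, against 26.5% and 24.8% of all genes. Osr1 and Osr2, factors of loose connective tissue, changed by -1.14 (SE 0.16, adjusted p = 1.08e-05) and -1.09 (SE 0.24, adjusted p = 0.000922), and Lhx9 by 1.42 (SE 0.42, adjusted p = 0.00845). Osr2 fell short of 2-fold without P3 replicate 1 (-0.93) or P7 replicate 3 (-0.895). Ebf3 (log2 fold change -1.08, SE 0.37, adjusted p = 0.021) lost its call without P3 replicate 2, P7 replicate 1 or P7 replicate 3 (-0.78, -0.88 and -1.02, adjusted p = 0.101, 0.0704 and 0.0504).

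Lysosomal genes rose by small amounts and together. Of 28 tested, 23 passed the test as higher and 1 as lower, against 24.8% of all genes that passed as higher, but 0 were called higher at 2-fold, and the median was 0.49. Glb1, whose product gives the senescence-associated β-galactosidase stain, had 67.4, 67.6, 55.1 and 60.9 CPM at P3 and 98.2, 88.7, 91.8 and 95.2 CPM at P7, with no overlap (log2 fold change 0.58, SE 0.08, adjusted p = 1.55e-05). The member that fell was Ctss, cathepsin S of antigen-presenting cells, from 6.24, 9.88, 5.48 and 7.53 CPM to 0.611, 0.386, 0.0769 and 2.23 CPM (log2 fold change -3.11, SE 0.41, adjusted p = 5.76e-06), after 87.97 ± 15.5 CPM at P1 (mean ± SD, n = 4). P7 replicate 4 was again the highest of its passage, as for the macrophage gene Lyz2. The part of macrophages in the change of Ctss was not tested.

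Glycolytic genes also moved by less than 2-fold: 12 of 18 passed as higher and 0 as lower, against 24.8% and 26.5% of all genes (median 0.39). Of 22 cholesterol synthesis genes, 2 passed as higher and 5 as lower, both under those shares of all genes (median -0.14). In the list of antioxidant genes driven by NRF2, 2 of 16 were called higher and 1 lower, against 4.44% and 7.41% of all genes (median 0.28). Hmox1, heme oxygenase, had 316, 292, 273 and 294 CPM at P3 and 620.4, 678, 558 and 637 CPM at P7 (log2 fold change 1.08, SE 0.08, adjusted p = 4.21e-09), and the quinone reductase Nqo1 changed by 1.301 (SE 0.17, adjusted p = 4.12e-06). Slc7a11, the cystine transporter, was called lower, from 21.4, 24.6, 30.4 and 30.5 CPM to 4.96, 5.86, 6.92 and 10.99 CPM (log2 fold change -1.89, SE 0.18, adjusted p = 1.03e-07).

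Genes with the largest changes outside these lists were of several kinds. Among separated genes at a mean log2 CPM of 3 or more, Cd53, a tetraspanin of leukocytes (chromosome 3, 106758861 to 106790149), was second to Cdkn2a in the higher direction. It had 5.85, 10.3, 6.45 and 8.997 CPM at P3 and 83.3, 75, 87.8 and 75.9 CPM at P7 (log2 fold change 3.35, SE 0.18, adjusted p = 7.11e-11). It rose while 6 of 12 macrophage markers fell, and the part of leukocytes in its change was not tested. Prl2c2 (proliferin) stood at 5.98, 6.45, 7.87 and 7.53 CPM and 53.7, 43.7, 41.9 and 102 CPM (log2 fold change 3.11, SE 0.27, adjusted p = 2.1e-08), with a value that is uncertain because near-identical copies share its reads. Sod3, the extracellular superoxide dismutase, had 57.6, 55.4, 45.7 and 50.98 CPM at P3 and 292, 313, 299 and 225 CPM at P7 (log2 fold change 2.43, SE 0.23, adjusted p = 9.8e-08). Cxcl14, a chemokine of skin, Mgst3 and Fmo2, enzymes of detoxification, and Tmem151a changed by 2.34 (SE 0.25, adjusted p = 4.17e-07), 2.12 (SE 0.19, adjusted p = 4.7e-08), 2.02 (SE 0.19, adjusted p = 7.45e-08) and 2.09 (SE 0.19, adjusted p = 5.02e-08). In the lower direction, besides the mitotic genes and those of muscle, adipocytes and endothelium given above, the lowest were Cbln1 (-5.399), a secreted protein of synapses, Stab1 (-3.97), a scavenger receptor of sinusoidal endothelium and macrophages, and Plvap (-3.71), a protein of endothelial pores. All 3 had been higher at P1, at 32.2, 45.3 and 36.6 CPM on average. The limit on mean log2 CPM was taken over all 16 libraries, so their P1 levels counted towards it.

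Most of the change was under way by P5. The mean of P5 lay between those of P3 and P7 for 553 of the 597 higher genes (92.6%) and 932 of the 996 lower genes (93.6%), and the median gene had covered 48.5% of its change by P5 when higher and 53.6% when lower. P1 was within 2-fold of P3 for 458 of the higher and 716 of the lower genes. It was more than 2-fold away in the direction of P7 for 63 higher genes (10.6%) and 18 lower genes (1.8%), and in the opposite direction for 76 (12.7%) and 262 (26.3%). These shares describe means chosen through P3 and P7, among genes filtered over all 16 libraries with P1 included, and were not tested.

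Single genes took different courses. Cdkn2a had means of 8.06, 21.4, 101 and 224 CPM at P1, P3, P5 and P7. Mki67 had 323, 282, 83.98 and 20.8 CPM, so most of its drop came after P3. Ptgs2, at 19.7, 77.3, 54.03 and 256 CPM, was no higher at P5 than at P3. Il6 had 2.58, 5.97, 5.26 and 11.9 CPM, and Ccl2 had 417, 192, 282 and 530 CPM, so that Ccl2 was lowest at P3. H19, at 52.7, 8.23, 2.16 and 0.835 CPM, was lower at each later passage.

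**Figure D4:**
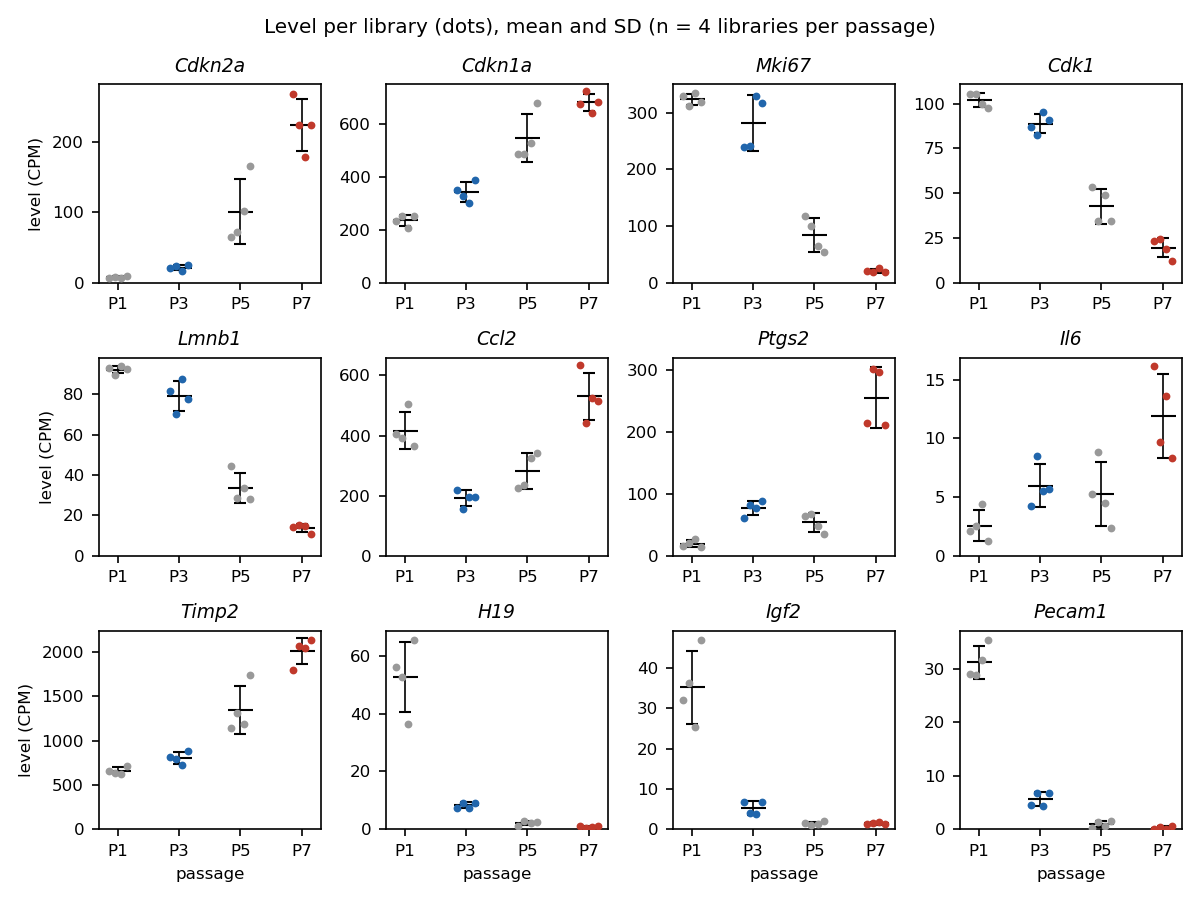
CPM of 12 genes in each of the 16 libraries by passage, with 1 point per library and bars for the mean and SD of 4 libraries, on linear axes that start at 0. Cdkn2a climbs from a mean of 8.06 CPM at P1 to 224 CPM at P7, and Mki67 is near 323 and 282 CPM at P1 and P3 and at 20.8 CPM at P7.

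The series also perturbed transcription factors in primary fibroblasts of newborn and 2-month-old mice with lentiviral vectors, and the genes called between P7 and P3 were followed there. According to the paper, E2f4 was overexpressed under doxycycline in pre-senescent cells and knocked down in proliferating cells at P3. Atf3 was knocked down in pre-senescent cells, and cells with hairpins were selected with puromycin. Starting cells and treatment thus differed between the experiments. The experiments were overexpression of E2f4 (2 libraries against 2 controls), knockdown of E2f4 with hairpin sh1 (3 against 3), of Tead1 with sh3 and sh4 (3 each against the same 3 controls) and of Atf3 with sh5 and sh6 (3 each against the same 3 controls). Their libraries held 9147324 to 27552949 counts. The targeted genes moved as labelled: E2f4 stood at 35.45 and 47.54 CPM in its controls and at 1118 and 1180 CPM on overexpression, and at 59.63, 60.84 and 59.61 CPM with the non-targeting hairpin and 21.63, 20.36 and 21.77 CPM with sh1. Tead1 went from 572.1, 507.9 and 544.5 CPM to 267.9, 284.1 and 284.9 CPM with sh3 and 315.4, 313.3 and 320.4 CPM with sh4. Atf3 was scarce, at 3.308, 2.853 and 2.771 CPM in controls, 1.462, 2.098 and 0.4511 CPM with sh5 and 1.511, 1.558 and 2.092 CPM with sh6.

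On E2f4 overexpression the genes higher at P7 had a median log2 fold change of -0.17 (526 genes) and the genes lower at P7 one of 0.28 (781 genes), with 0.02 over all 12672 genes tested in both. Of the P7-lower genes 40.5% passed as higher on E2f4 overexpression, against 29.3% of all genes, and of the P7-higher genes 31.7% passed as lower, against 28.2%. When the P7 genes were taken with no fold limit, these medians turned to 0.07 for the higher and -0.001 for the lower genes. With E2f4 knocked down, the median was 0.27 for 492 P7-higher genes and -0.27 for 701 P7-lower genes, with -0.01 over 12190 genes. Here 27.6% of the P7-higher genes passed as higher, against 10.1% of all, and 28.1% of the P7-lower genes passed as lower, against 7.85%. With no fold limit the medians were 0.11 and -0.12.

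Several cell-cycle genes moved oppositely in the E2f4 experiments, which differed in starting cells and treatment as well as in E2f4. On E2f4 overexpression, 16 of 21 licensing genes passed as higher and 2 as lower (median 0.79), and with sh1 0 passed as higher and 12 as lower (median -0.42). Mcm6 changed by 0.79 (SE 0.10, adjusted p = 0.000121) on overexpression and by -0.52 (SE 0.07, adjusted p = 0.000317) with sh1. Lmnb1 changed by 1.400 (SE 0.11, adjusted p = 1.01e-05) and -0.53 (SE 0.09, adjusted p = 0.000639). Mki67 changed by 0.04 (SE 0.15, adjusted p = 0.849) and -0.57 (SE 0.08, adjusted p = 0.000207), so that it passed in the knockdown only, and the difference between the experiments was not tested.

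Cdkn2a changed by -0.83 (SE 0.12, adjusted p = 0.000205) on E2f4 overexpression and by -0.16 (SE 0.09, adjusted p = 0.214) with sh1. Cd53 changed by -2.95 (SE 0.18, adjusted p = 2.66e-06) and 0.72 (SE 0.13, adjusted p = 0.00163), Grem1 by -2.02 (SE 0.13, adjusted p = 3.33e-06) and 0.42 (SE 0.08, adjusted p = 0.00186), and Ptgs2 by -1.41 (SE 0.13, adjusted p = 1.63e-05) and 0.43 (SE 0.09, adjusted p = 0.00476). Sod3, higher at P7, passed as higher in both, by 0.52 (SE 0.19, adjusted p = 0.0365) and 1.31 (SE 0.08, adjusted p = 2.73e-07). H19 changed by 4.197 (SE 0.16, adjusted p = 1.01e-07) and -0.69 (SE 0.13, adjusted p = 0.00173). The interferon list moved in some of the knockdowns: 20 of 21 members passed as higher with sh1 of E2f4 (median 2.13), 20 of 20 with sh3 of Tead1 (median 2.07) and 10 of 20 with sh4 (median 0.57), while 8 of 20 passed as lower with each hairpin of Atf3. Its part in the medians above was not tested.

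With the Tead1 hairpins the P7-higher genes (549) had medians of 0.07 with sh3 and 0.02 with sh4, and the P7-lower genes (767) of -0.01 and 0.12. All tested genes had medians of 0.002 and 0. Of the P7-higher genes, 22.6% passed as higher with sh3, against 17.8% of all, and 14.6% with sh4, against 14.6% of all. Ptgs2 changed by -0.84 (SE 0.05, adjusted p = 1.98e-14) with sh3 and -0.87 (SE 0.05, adjusted p = 2.17e-14) with sh4. The hairpins share controls and so do not count as independent evidence.

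With the Atf3 hairpins the P7-higher genes (559) had medians of -0.28 with sh5 and -0.17 with sh6, beside -0.03 and -0.02 over all genes, and 26.5% and 28.6% of them passed as lower, against 18.6% and 26.3% of all. The P7-lower genes (794) differed between the hairpins, with medians of 0.06 and -0.29, and 14.6% and 36.1% of them passed as lower. With sh6 the share of the P7-higher genes was thus near that of all genes and under that of the P7-lower genes. Cdkn2a changed by -0.74 (SE 0.19, adjusted p = 0.0139) with sh5 and -0.98 (SE 0.19, adjusted p = 0.00173) with sh6, whereas Ptgs2 changed by 1.55 (SE 0.09, adjusted p = 9.66e-06) and 3.24 (SE 0.10, adjusted p = 1.78e-08) and Il6 by 1.67 (SE 0.20, adjusted p = 0.000511) and 2.64 (SE 0.20, adjusted p = 2.8e-06). These hairpins also share controls. With no fold limit on the P7 genes, the medians with sh6 were -0.01 for the higher and -0.02 for the lower genes.

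**Figure D5:**
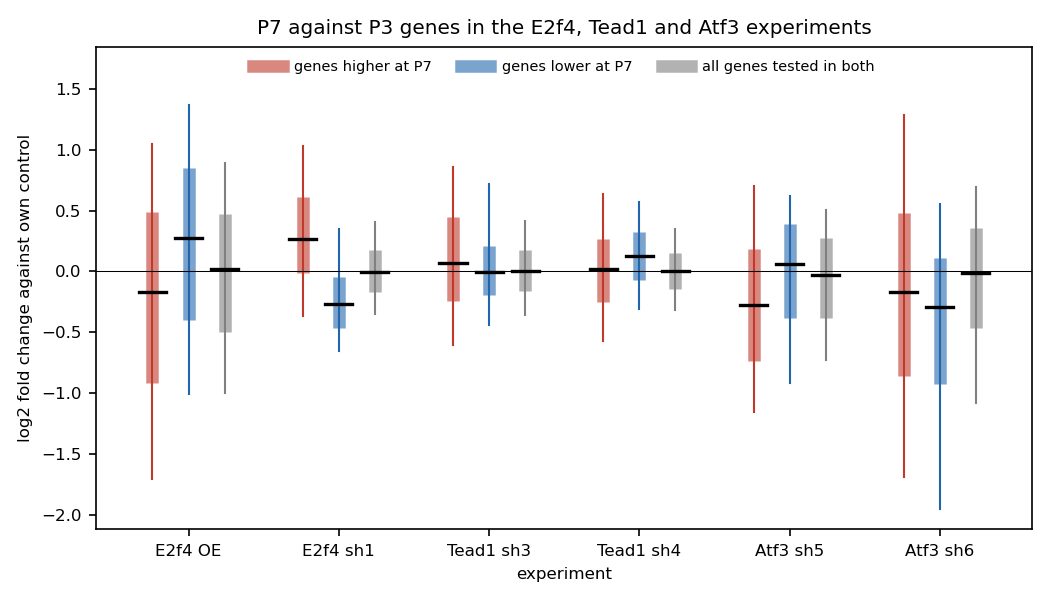
Log2 fold changes, in each perturbation of E2f4, Tead1 or Atf3, of the genes called higher at P7, the genes called lower at P7 and all genes tested in both. The black bar is the median, the box spans the 25th to 75th percentile and the line the 10th to 90th percentile of genes. With E2f4 sh1 the medians are 0.27 and -0.27 and on E2f4 overexpression -0.17 and 0.28, while those with the Tead1 hairpins lie between -0.01 and 0.12.

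ATAC-seq, which finds open chromatin, was deposited as lists of peaks for 3 samples of each passage, with 142384 to 155681 peaks per sample at P3 and 200376 to 231558 at P7. Since the number of peaks differed, the strongest peak within 1000 bases of a start was expressed as its percentile among all peaks of its own sample. In all 3 P7 samples it ranked above all 3 P3 samples for 115 of 585 P7-higher genes (19.7%), 91 of 967 P7-lower genes (9.41%) and 1578 of 13047 genes in all (12.1%). It ranked below for 41 P7-higher genes (7.01%), 187 P7-lower genes (19.3%) and 1729 in all (13.3%). A comparison of 3 samples with 3 cannot go below p = 0.1 in an exact permutation test, so these are counts without a test. When the same number of top-ranked peaks was taken in every sample, the shares above were 4.96% of the P7-higher genes, 1.96% of the P7-lower and 2.96% of all, and the shares below were 30.1%, 44.2% and 41.9%.

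These ranks shift with the length of the peak lists, so values of single genes are given as a description. The peak at Mcm6 ranked at percentiles 91.3, 87.9 and 87.8 at P3 and 78.4, 82.9 and 74.8 at P7, all lower. That at Foxm1 ranked at 57.9, 61.5 and 51.6 and 42.3, 50.2 and 37.5, and that at Tk1 at 73.4, 74.5 and 76.6 and 50.7, 59.1 and 47.7, also lower. Grem1, whose RNA rose, ranked at 53.2, 48.4 and 50.2 and 41.7, 31.2 and 40.5, all lower. All 3 P7 samples also ranked below P3 at these 4 genes with the same number of peaks in every sample, as they did for 41.9% of all genes. Of the named genes, only Rrm1, Mmp12, Lyz2, Ogn and Wnt11 ranked above in all 3 P7 samples either way. With the same number of peaks 2.96% of all genes did so. The RNA of Wnt11 rose, but that of the others was called lower. Rrm1 ranked at 86.6, 79.3 and 86.1 at P3 and 94.4, 95.3 and 93.9 at P7 with all peaks. Cdk1, whose RNA fell, ranked at 91.1, 85.1 and 90.1 at P3 and 93.1, 95.6 and 93.2 at P7, but at 90.3, 85.1 and 89.2 and 90.3, 92.8 and 89.4 with the same number of peaks, where the passages overlapped. At Ptgs2 and Mki67 they overlapped either way. At Cdkn2a, Cdkn2b and Ccl2 they overlapped with all peaks, and P7 ranked below with the same number.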

How the data were processed

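The RNA-seq libraries of the 4 passages (P1, P3, P5 and P7, 4 libraries each) were used, with the RNA-seq libraries of the E2f4, Tead1 and Atf3 experiments and the ATAC-seq samples of P3 and P7 (3 each). Groups were taken from the sample labels. According to the methods, the authors used Trimmomatic 0.39 for trimming, HISAT2 2.2.1 for alignment to mm10 and HTSeq 0.12.4 for unstranded counting per gene, so overlapping and antisense genes could not be separated. The deposited values are raw counts for 24984 genes. The authors called ATAC-seq peaks in each sample with MACS2, and the deposited -log10 p of each peak was used as a rank within its sample. The peak lists hold no read counts, so their depth is unknown. The deposited fold enrichment and -log10 q columns gave no result beyond an alternative, and the RRBS samples were not used here.

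The 16 libraries of the passages were fitted together with edgeR 4.0.16 in R 4.3.3 (filterByExpr, TMM, quasi-likelihood test, Benjamini-Hochberg adjustment over 13442 genes). Calls required an adjusted p below 0.05 plus a change beyond 1 on the log2 scale. The common coefficient of biological variation was 0.129. In simulated counts, recovery was judged by an adjusted p below 0.05 in the right direction, without the fold limit of the calls. By that measure 46 of 50 genes raised 2-fold and 43 of 50 lowered 2-fold were recovered. Of 13242 unchanged genes 5 passed the adjusted p alone. The changed genes were drawn from those above 1 CPM at P3, so the recovery of the calls themselves was not measured. No replicate pair agreed within sampling noise (chi-square per degree of freedom 7.37 to 41.1). Counting intervals are exact at 95%, and with floors of 3 counts they cover counting error only. Each perturbation was fitted on its own, after rows without a gene (7.5 to 16.76% of counts) were dropped. The members and the 27 gene lists were chosen with earlier results of these data known. No set test was made. The genes of the text were a fixed set of senescence genes, the 10 highest and 10 lowest called genes among those separated between passages at a mean log2 CPM of 3 or more, up to 3 called members of each list in either direction with those called against the median of their list, and the marker with the highest P3 level of each cell type. Mbp, Tie1, Cldn5, Myh8, Csf1r, the markers at 0, the D cyclins and Cdk6 were named after their values were seen. Some genes of the rule are not reported here. Symbols were matched to RefSeq (24893 genes, 430 by an older symbol). The supplied table of promoters held 74.7% of the lower and 76.2% of the higher genes, under 80%, so starts and promoter windows were read from the RefSeq annotation and genome of GRCm38.p6 in its place. The alternatives were DESeq2 1.42.0, its size factors, no filter, a minimum of 10 counts per library, a 1.5-fold null in the test, only the P3 and P7 libraries, the replicate number as a block, each library left out, no fold limit, and other peak windows and thresholds. Leaving out genes higher at P1 or markers of other cell types was added after the data were seen.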

Additional observations from a re-analysis of the deposited data

Results flagged for a closer look

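In 258 groups of 4 libraries, 12 held a library set apart from the rest by Dixon's test, where chance alone flags about 1 group in 20. P7 replicate 4 had 53.96 CPM of Cdh19, a cadherin of Schwann cells, against 15.82 to 19.62 CPM in the other P7 libraries, and 177.1 CPM over the Schwann cell and melanocyte markers, against 57.8 to 77.78 CPM. Without that library the log2 fold change of Cdh19 was -0.95 (adjusted p = 0.00218, edgeR). P3 replicate 4 had 151 CPM of Igfbp2 against 47.97 to 64.67 CPM and 4.389 CPM of Sfn against 2.837 to 2.957 CPM. P3 replicate 2 had 11.18 CPM of Plagl1 against 6.637 to 7.388 CPM and 0.2058 CPM of Dsp against 0.8382 to 0.9509 CPM. P3 replicate 3 had 5.867 CPM of Cxcl1 against 3.567 to 3.877 CPM, and P3 replicate 1 had 40.74 CPM of Fst against 49.33 to 49.89 CPM. P7 replicate 1 had 279.5 CPM of Tead1 against 405.6 to 416.6 CPM, and P7 replicate 3 had 51.88 CPM of Fmo2 against 31.77 to 34.34 CPM. P7 replicate 1 with 0.07634 CPM of Cd36 and P7 replicate 4 with 0.07423 CPM of Myh3 each held 1 count where the other P7 libraries held 0.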

How the results depend on the processing

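Of 121 named genes 100 were called higher or lower, and 81 of these kept the call under every alternative run, adjusted p and 2-fold limit together. With at least 10 counts in every library the calls were 357 higher and 614 lower, because fewer genes were tested. Leaving out 1 library gave 560 to 693 higher and 910 to 1055 lower. The replicate number as a block gave 605 higher and 996 lower; libraries with the same number correlated by -0.122 to 0.276 in their deviations from the passage means, and 2 of 4 P3 libraries correlated best with their own number at P7, so the fit without the block was kept. Replicate 4 had the highest pericyte and Schwann cell sums and the lowest adipocyte sum in each passage, and no source used here says what a number shares. With the block Pdgfra (-0.36, adjusted p = 0.00141) and Cxcl1 (0.82, adjusted p = 0.0155) passed the test, and Il6 passed 2-fold (1.002). DESeq2 gave 613 and 987, no filter 705 and 1059, and only the P3 and P7 libraries 592 and 781. Without the genes higher at P1 734 lower genes were left, and without markers of other cell types 971.

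List medians moved in some settings, cytokines to 0.23 and Wnt to 0.557 with no filter, and, with 1 library left out, p53 targets lay between 0.147 and 0.299, AP-1 between 0.215 and 0.556 and Wnt between 0.138 and 0.529. Calls in small lists moved with single libraries: Hox genes had 3 called higher without P3 replicate 4, and p53 targets had 2 without P3 replicate 1 or 4 or P7 replicate 3. The median of the keratinocyte markers turned to 0.591 with at least 10 counts, 0.72 with only P3 and P7 and 0.455 without P3 replicate 3 (range -1.349 to 0.455 with 1 library left out), and that of the muscle markers to 0.102 with at least 10 counts. Small changes of single genes turned when a library was left out: Acta2 lay between -0.293 and 0.018, Col1a1 between -0.0204 and 0.1129, Mest between -0.2861 and 0.19, Mmp3 between -0.019 and 0.2355 and Postn between -0.2194 and 0.0657, with the sign turned without P3 replicate 4 for Acta2 and Mmp3, P3 replicate 2 or P7 replicate 4 for Col1a1, P3 replicate 3 or P7 replicate 1 or 3 for Mest, and P3 or P7 replicate 2 for Postn.

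With no fold limit on the P7 genes, P5 lay between P3 and P7 for 86.4% of higher and 87.7% of lower genes, P1 lay over 2-fold towards P7 for 2.8% and 0.8%, and in the opposite direction for 4.5% and 8.4%. The medians of the higher and lower genes were then 0.071 and -0.001 on E2f4 overexpression, 0.111 and -0.117 with E2f4 sh1, 0.012 for the higher genes with Tead1 sh3, -0.015 and 0.018 with Tead1 sh4, and -0.011 and -0.017 with Atf3 sh6. Promoters of the lower genes held TTTGAA in 14.9% and CCAAT in 41.7%, and promoters of the higher genes held TGAGTCA in 4.38% and an E2F match in 10.2%. For ATAC-seq peaks with -log10 q of at least 5, 24.1% of higher, 12.5% of lower and 16.6% of all genes were above and 4.44%, 10.4% and 7.44% below. When only an equal count of top peaks was kept per sample, these were 4.96%, 1.96% and 2.96% above and 30.1%, 44.2% and 41.9% below. With a window of 500 bases 11.1% of all genes were above. Under each peak setting the higher genes were more often above than all genes. With all peaks, the higher genes started from a lower rank, a median percentile of 73.43 at P3 against 87.53 for all genes. The median difference of P7 from P3 was 0.59 for the higher, -0.14 for the lower and 0 for all genes. The part of the starting rank in these shares was not tested. The causes of the shifts between settings were not tested either.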

Other observations

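Several genes at low level rose more steeply than any gene of the report, and they were picked after their values were seen. Hsd3b6, a steroid dehydrogenase, had 7 counts over the P3 libraries and 872 over the P7 libraries, and stood at 8.70, 25.7, 16.1 and 16.03 CPM at P7 (log2 fold change 7.03, SE 0.53, adjusted p = 2.03e-08, edgeR). Ppbp, a platelet and stromal chemokine, had 14 counts at P3 and 405 at P7 (4.97, SE 0.44, adjusted p = 3.21e-08). Mstn, myostatin, which restrains muscle growth, had 27 and 537 counts (4.45, SE 0.36, adjusted p = 8.51e-09), while 7 muscle markers fell. The granzyme Gzme, known from cytotoxic cells, had 32 and 488 counts (4.08, SE 0.30, adjusted p = 2.33e-09), and Mcpt8, a protease of basophils, had 15 and 202 counts (3.87, SE 0.48, adjusted p = 2.1e-06). In these 5 genes every P7 library was above every P3 library. Granzymes and mast cell proteases are families of similar genes, so the counts of Gzme and Mcpt8 are uncertain. In the lower direction Scn3a, a neuronal sodium channel, had 176 counts at P3 and 0 at P7, after a mean of 15.4 CPM at P1.

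Csf1r, the receptor of macrophage colony-stimulating factor, had 8.48, 8.30, 9.09 and 9.51 CPM at P3 and 24.6, 23.5, 20.4 and 18.6 CPM at P7 (1.30, SE 0.135, adjusted p = 2.8e-07), although 6 of the 12 macrophage markers were called lower. Cd53, also known from leukocytes, rose as well. Neither gene was highest in P7 replicate 4, the library with the highest Lyz2 and Mmp12 of its passage. The part of macrophages in the changes of Csf1r, Cd53, Lyz2, Mmp12 and Ctss was not tested.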
